A study of Mus musculus with 10 samples.

Results

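The genes examined here are *Gnaq*, *Gna11*, *Plcb3*, *Plcb4*, *Itpr1* and *Homer3*, 6 members of the pathway that runs in Purkinje cells from metabotropic glutamate receptors through the Gq proteins and phospholipase C beta to calcium release. They were chosen by their place in this pathway, by symbol in the GENCODE M21 annotation, and each was found once among the 53447 genes listed in every library. All 6 were also among the 17168 genes that were tested, which are those at 0.5 TPM or more in at least 5 libraries, TPM being a level corrected for the length of the transcript and for the size of the library. The libraries came from cerebellum tissue of 5 control (WT) and 5 DscamKO mice, labelled BALB/c, at postnatal day 21, with 1 library per animal. No batch, litter or run is labelled. The DscamKO animals were *Dscam* del17/del17 homozygotes, which carry a spontaneous loss-of-function deletion in every cell of the body, and no Cre or transgene was used in either group. The line had been crossed to BALB/cCrSlc mice, and the sources used here do not give the number of crosses. Controls in the study were littermates and both sexes were used, while the labels do not give the sex of an animal.

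When glutamate reaches these receptors, the alpha subunit of a Gq protein, encoded by *Gnaq* or *Gna11*, switches on phospholipase C beta. This enzyme, made from *Plcb3* or *Plcb4* in Purkinje cells, splits a membrane lipid into inositol trisphosphate, which opens the calcium channel of the endoplasmic reticulum encoded by *Itpr1*, and diacylglycerol, which activates protein kinase C together with calcium. *Homer3* encodes a scaffold of Purkinje cell spines that ties the receptors to the inositol trisphosphate receptor. In the developing cerebellum the pathway is known for the late phase of climbing fibre elimination, in which surplus climbing fibre synapses are removed from the Purkinje cell.

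The level of *Dscam* was read first, and TPM per gene does not show the deletion itself. *Dscam* had 7.72 ± 1.15 TPM in WT against 4.37 ± 0.979 TPM in mutant mice (SD, n = 5 each, adjusted p = 0.779 from limma). Its groups did not overlap, as was the case for 1.22% of all genes tested. The listed TPM summed to between 684771 and 838532 per library, and TPM holds no number of reads, so the depth behind each value is unknown. WT replicates 3 and 5 stood apart with 23124 and 15206 TPM of mitochondrially encoded mRNA, against 32199 to 44973 TPM in the other 8 libraries, and the comparisons were repeated without them. The lowest sum of listed TPM was also that of WT replicate 5. It had the fewest genes at 0.5 TPM or more, 15623 against 17101 to 17763 in the others. Of 14 Purkinje cell markers, 13 were tested, with *Pcp4* at 1667 ± 310 TPM (SD, n = 5) and *Pcp2* at 1774 ± 477 TPM (SD, n = 5) in WT as the most abundant (log2 fold changes, mutant minus WT, of 0.22 and -0.13, and of 0.078 and 0.049 without WT replicates 3 and 5). The 14 markers reached sums of 4939 to 5754 TPM in WT libraries and 4885 to 6127 TPM in mutant ones. These sums rest largely on *Pcp2* and *Pcp4*. WT replicate 5 had the highest *Pcp2* level, 2605 TPM, and the lowest *Pcp4* level, 1165 TPM. The mean log2 level of the 10 tested markers outside the pathway was 6.51 in that library, against 6.92 to 7.29 in the others.

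The 6 genes fell into a pair of very abundant ones and 4 of intermediate level. *Homer3* had a mean of 399.7 TPM over the 10 libraries, above 98.7% of the genes tested, and *Itpr1* had 333 TPM, above 98.3%. *Gna11* followed at 55.0 TPM, *Plcb4* at 54.0 TPM, *Gnaq* at 46.6 TPM and *Plcb3* at 36.5 TPM, above 84.9%, 84.6%, 82.1% and 77.5% of the genes tested. TPM is divided by length, so levels of different genes can be set against each other within a library. *Itpr1* was higher than *Gna11* in 10 of 10 libraries, by 6.01-fold on average (exact sign-flip permutation test, two-sided, adjusted p = 0.00977 over the 5 pairs of neighbours in this order). No other neighbours differed beyond their spread. *Homer3* was above *Itpr1* in 8 of 10 libraries (1.20-fold, exact adjusted p = 0.0879) and *Gnaq* above *Plcb3* in 6 of 10 (1.24-fold, exact adjusted p = 0.0911). *Gna11* was above *Plcb4* in 4 of 10 libraries and *Plcb4* above *Gnaq* in 8 of 10, with exact adjusted p-values of 0.734 and 0.359.

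No difference between the genotypes passed the threshold, an adjusted p of 0.05, for any of the 6 genes. Log2 fold changes, given throughout as mutant minus WT on log2 values after adding 0.1 TPM, lay between -0.17 and 0.12, with 3 above 0 and 3 below and a median of -0.0016, beside a median of 0.048 over all genes tested. With limma, 0 of the 6 passed an adjusted p of 0.05 over all genes tested, as did 0% of those genes, and 0 of the 6 had an unadjusted p under 0.05, against 5.55% of all genes. The groups overlapped for each of the 6, while among all genes tested 0.419% lay wholly higher and 0.798% wholly lower in the mutant, 1.22% in all. The intervals bound the differences rather than show equal levels, and the narrowest, that of *Gna11*, ran from 0.759 to 1.04 times the WT level. In bulk tissue, fewer Purkinje cells and less RNA per cell cannot be told apart.

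**Figure D1:**
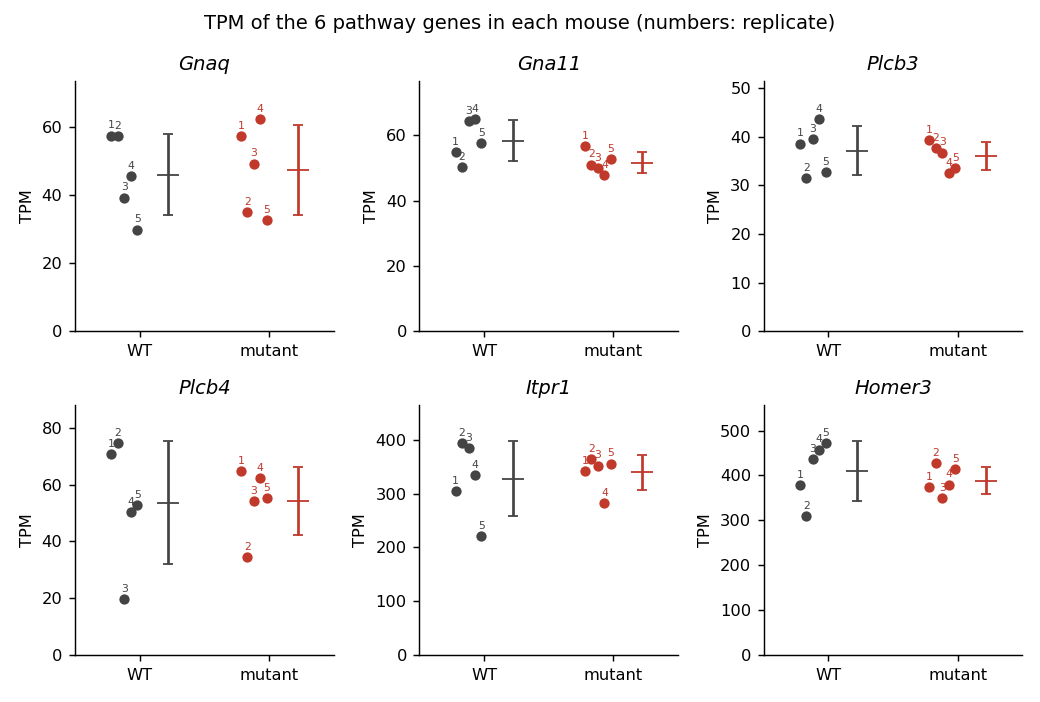
TPM (vertical axis, from 0) of the 6 genes in each mouse, with 1 point per library numbered by replicate, and each genotype's mean drawn with its SD. WT and mutant points overlap in every panel, and the lowest *Plcb4* value, 19.8 TPM, is that of WT replicate 3.

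*Gnaq*, on the plus strand of chromosome 19 (chr19:16132831-16387463, GRCm38), encodes the alpha subunit of Gq. It was measured at 57.4, 57.3, 39.2, 45.6 and 29.8 TPM in WT replicates 1 to 5 and at 57.3, 34.9, 49.2, 62.3 and 32.6 TPM in mutant replicates 1 to 5. Both genotypes thus held libraries near 60 TPM and libraries near 30 TPM, and the mean was 45.9 ± 11.9 TPM in WT against 47.3 ± 13.2 TPM in mutant mice (SD, n = 5 each). From limma it had a log2 fold change of 0.037 with a standard error of 0.23, an interval (95%) of -0.47 to 0.54 and an adjusted p of 0.971, and the exact permutation test of the means, two-sided, gave p = 0.873. Its sign turned when WT replicate 5 was left out (-0.11), when both that library and WT replicate 3 were (-0.22), and to between -0.074 and -0.0087 when WT replicate 3, mutant replicate 1 or mutant replicate 4 was.

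*Gna11* encodes the alpha subunit of G11, the close relative of Gq, and lies on the minus strand of chromosome 10 (chr10:81528724-81545190). Its TPM were 54.7, 50.1, 64.3, 64.9 and 57.6 in WT replicates 1 to 5 and 56.7, 51.0, 50.1, 47.9 and 52.6 in mutant replicates 1 to 5. All 5 mutant values lay below the WT median of 57.6 TPM, while WT replicates 1 and 2 fell inside the mutant range. With 58.3 ± 6.31 TPM (SD, n = 5) against 51.6 ± 3.30 TPM (SD, n = 5), its log2 fold change of -0.17 (standard error 0.10, 95% interval -0.40 to 0.056) was the furthest from 0 of the 6. It did not pass the threshold (adjusted p = 0.779 from limma) or the exact permutation test, two-sided (p = 0.0714), and it stayed below 0 in all 25 alternative settings, from -0.22 to -0.12. Relative to the median of all genes tested, it was -0.22 in the main fit and -0.032 without WT replicates 3 and 5. That difference was -0.021 with mitochondrial mRNA as a covariate and -0.033 with the Purkinje markers as one, and it lay further below 0 in the other settings.

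The phospholipase C beta isozymes are made by different Purkinje cells, *Plcb3* in the zebrin-positive and *Plcb4* in the zebrin-negative stripes of the cerebellar cortex. *Plcb3* (chr19:6952325-6976470, minus strand) had 38.6, 31.4, 39.4, 43.6 and 32.7 TPM in WT replicates 1 to 5 and 39.3, 37.7, 36.7, 32.5 and 33.5 TPM in mutant replicates 1 to 5. Every mutant value lay inside the WT range. The means were 37.1 ± 5.03 TPM for WT against 35.9 ± 2.88 TPM for mutants (SD, n = 5 each), for which limma gave -0.040 as log2 fold change, with a 95% interval from -0.31 up to 0.23 and an adjusted p of 0.941 (exact permutation p = 0.659). It was 0.020 with WT replicate 4 left out.

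*Plcb4* (chr2:135659011-136014593, plus strand) had 70.7, 74.8, 19.8, 50.4 and 52.9 TPM in WT replicates 1 to 5 and 64.9, 34.6, 54.2, 62.3 and 55.2 TPM in mutant replicates 1 to 5. It was the most variable of the 6, with a 3.78-fold range over the 10 libraries and WT replicate 3 far below the others. The means were 53.7 ± 21.8 TPM for WT against 54.2 ± 11.9 TPM for mutants (SD, n = 5 each). Its log2 fold change of 0.12 had the widest interval (-0.59 to 0.83, adjusted p = 0.935 from limma, exact permutation p = 0.968), so that a mutant level of 0.662 to 1.77 times that of WT lay within it. Without WT replicate 3 the log2 fold change was -0.21.

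*Itpr1* (chr6:108213096-108551109, plus strand) encodes the main inositol trisphosphate receptor of Purkinje cells. It had 304, 394, 384, 334 and 221 TPM in WT replicates 1 to 5 and 341, 365, 352, 283 and 356 TPM in mutant replicates 1 to 5. The mutant values lay within the WT range, whose low end was set by WT replicate 5. The means were 327 ± 69.8 TPM for WT against 339 ± 32.7 TPM for mutants (SD, n = 5 each), for which limma gave 0.074 as log2 fold change, with a 95% interval from -0.25 up to 0.40 and an adjusted p of 0.911 (exact permutation p = 0.778). Leaving out WT replicate 5 gave -0.060, and leaving out WT replicate 3 as well gave -0.018.

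*Homer3* (chr8:70282827-70294361, plus strand) had 379, 309, 436, 457 and 473 TPM in WT replicates 1 to 5 and 373, 427, 350, 380 and 413 TPM in mutant replicates 1 to 5. No mutant value exceeded the WT median of 436 TPM, and all 5 lay within the WT range. The means were 411 ± 67.1 TPM for WT against 389 ± 31.0 TPM for mutants (SD, n = 5 each), for which limma gave -0.066 as log2 fold change, with a 95% interval from -0.33 up to 0.20 and an adjusted p of 0.897 (exact permutation p = 0.516). It was 0.041 without WT replicates 3 and 5. *Homer3* shares 874 exon bases, 25.4% of its own, with *Ddx49* on the opposite strand, a gene with a mean of 27.5 TPM that was singled out for this overlap. The library kit keeps strand, but the strand setting of the quantification is not given in the sources used here, so reads in the shared bases may have been counted for either gene.

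**Figure D2:**
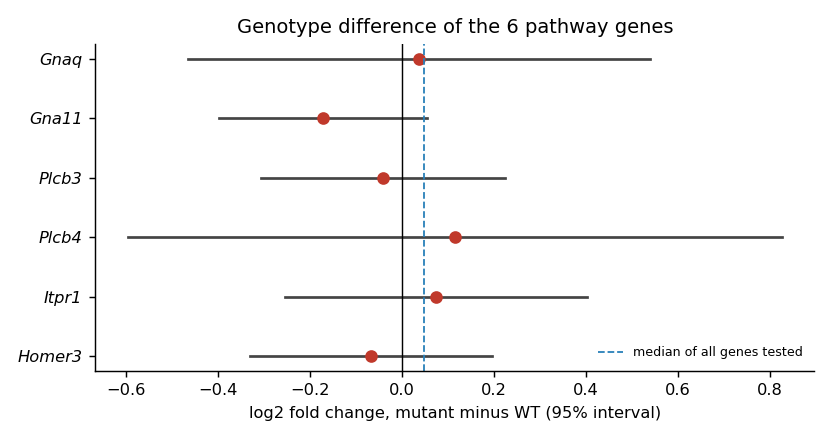
Log2 fold change (horizontal axis, mutant minus WT) of the 6 genes as points with 95% intervals from limma, and the median of all genes tested as a dashed line at 0.048. Each interval includes 0, and that of *Plcb4* is the widest.

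The sequence before the start of *Gna11* and of *Plcb3*, the pair that varied most alike over the libraries, and of *Gnaq*, the relative of *Gna11*, is given below from RefSeq on GRCm38.p6, 5′ to 3′ on the strand of the gene and without bases that GENCODE M21 places in exons of the same gene. Capitals mark GGGCGG, the GC box bound by Sp1, and AGGTCA, the half-site bound by ROR receptors such as that of *Rora*, each on either strand, and CCAAT and TATAAA were searched too.
*Gnaq*, chr19:16132434-16132683, plus strand: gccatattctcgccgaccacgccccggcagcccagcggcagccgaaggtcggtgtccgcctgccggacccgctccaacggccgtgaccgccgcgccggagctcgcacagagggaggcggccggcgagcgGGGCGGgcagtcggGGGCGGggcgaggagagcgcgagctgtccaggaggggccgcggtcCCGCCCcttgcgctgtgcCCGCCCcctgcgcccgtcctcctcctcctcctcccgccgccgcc
*Gna11*, chr10:81545191-81545412, minus strand: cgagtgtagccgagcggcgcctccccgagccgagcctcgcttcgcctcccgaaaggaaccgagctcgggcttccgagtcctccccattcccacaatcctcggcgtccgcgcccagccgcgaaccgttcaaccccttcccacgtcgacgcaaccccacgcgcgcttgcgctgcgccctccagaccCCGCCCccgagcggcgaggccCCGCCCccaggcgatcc
*Plcb3*, chr19:6969815-6970064, minus strand: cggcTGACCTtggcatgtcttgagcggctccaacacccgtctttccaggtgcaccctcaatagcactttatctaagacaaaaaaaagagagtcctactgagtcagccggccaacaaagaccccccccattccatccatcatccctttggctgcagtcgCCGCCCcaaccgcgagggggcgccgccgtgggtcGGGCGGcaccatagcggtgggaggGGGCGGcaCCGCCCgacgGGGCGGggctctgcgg

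In the full 250 bases before the start, *Gnaq* held 4 GC boxes, *Gna11* 2 and *Plcb3* 5, and 32.7% of the 32851 mouse promoters in the table held at least 1. Their G and C content was 79.2%, 73.2% and 64.4%, against a median of 52.4% over all promoters. The *Plcb3* window lay inside the span GENCODE M21 gives the gene, between exons, since longer transcripts start further upstream. RefSeq entries matched 5 of the 6 genes, with a pair of starts for *Plcb4*. The upstream start of *Plcb4* had 85.2% G and C and 7 GC boxes, some of them overlapping, and the downstream one 42.8% and 0, and TPM per gene does not tell which start was used. The AGGTCA half-site occurred once in *Plcb3* and once in *Homer3*, as in 14.02% of all promoters, and neither CCAAT (33.8% of promoters) nor TATAAA (12.4%) occurred in the 6 windows. These matches describe the letters of the windows only.

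For 5 of the 6 genes the log2 values spread more in WT than in the mutant, *Gnaq* being the exception. The same was true of 68.9% of all genes tested. Without WT replicates 3 and 5 it held for 4 of the 6 genes and for 45.9% of all genes.

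A share within a gene family does not depend on how a library was scaled, so each gene was also set against its closest relatives. The Gq class was made up almost wholly of *Gnaq* and *Gna11*, while *Gna15* had 0.728 ± 0.441 TPM (SD, n = 5) and *Gna14* 0.0598 ± 0.082 TPM (SD, n = 5) in WT. *Gnaq* made up 43.2 ± 8.37% of the class in WT against 46.7 ± 7.40% in mutant mice (SD, n = 5 each, adjusted p = 0.635 over the 4 families, two-sided exact permutation test). The class summed to 105 ± 10.1 TPM in WT against 99.6 ± 13.4 TPM in mutant mice (SD, n = 5 each, exact permutation p = 0.452).

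Among the phospholipase C beta genes, *Plcb4* held 51.9 ± 13.1% in WT against 53.5 ± 7.52% in mutant mice (SD, n = 5 each, exact permutation, adjusted p = 0.825). *Plcb3* held 39.5 ± 13.3% and 36.1 ± 5.28%, and *Plcb1*, the isozyme best known from the forebrain, 8.28 ± 2.12% and 10.02 ± 4.24%. Leaving out WT replicates 3 and 5 turned the *Plcb1* log2 fold change from 0.25 to -0.24. *Plcb2*, known from blood cells and taste cells, was at 0.32 ± 0.12 TPM in WT. In WT replicate 3 the order was turned, with *Plcb3* at 61.1% and *Plcb4* at 30.6%, and mutant replicate 2 was the other library in which *Plcb3* exceeded *Plcb4*, at 44.2% against 40.6%.

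*Itpr1* and *Homer3* dominated their families. *Itpr1* made up 97.1 ± 1.53% of the inositol trisphosphate receptor TPM in WT against 98.1 ± 0.515% in mutant mice (SD, n = 5 each, exact permutation, adjusted p = 0.635). Its lowest share, 94.7%, was in WT replicate 5, where *Itpr3* reached 5.06%. *Homer3* made up 97.3 ± 2.21% of the Homer TPM in WT against 96.5 ± 1.06% in mutant mice (exact permutation, adjusted p = 0.635). *Homer1* was at 15.6, 14.3, 0.739, 9.79 and 0.666 TPM in WT replicates 1 to 5 and between 5.01 and 14.7 TPM in the mutant, and it was thus nearly missing from the same WT libraries that had the least mitochondrial mRNA. *Homer2* was at 2.21 ± 0.581 TPM in WT against 3.02 ± 1.05 TPM in mutant mice (SD, n = 5 each). Leaving out WT replicates 3 and 5, the shares differed by -1.51 percentage points for *Gnaq*, -3.26 for *Plcb4*, 0.299 for *Itpr1* and 0.603 for *Homer3* (mutant minus WT).

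**Figure D3:**
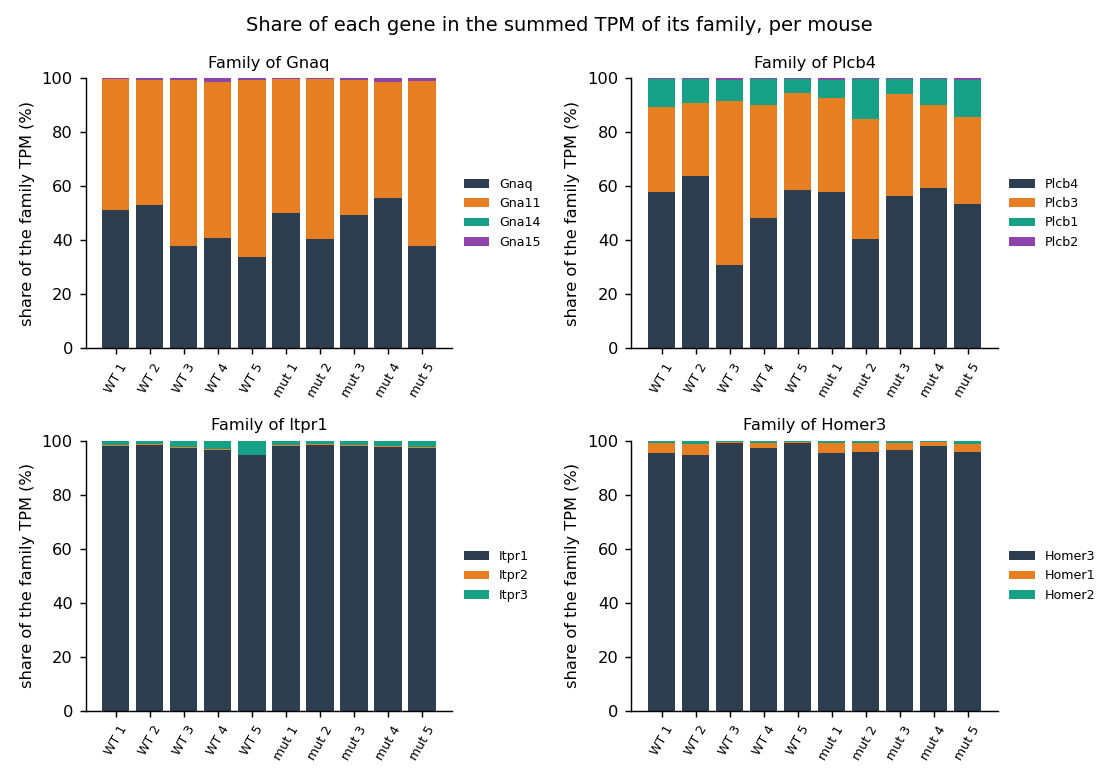
Share in percent of each gene in the summed TPM of its family (vertical axis, stacked bars from 0 to 100), with 1 bar per mouse. *Gnaq* and *Gna11* share their class in every library, *Plcb3* exceeds *Plcb4* in WT replicate 3 and mutant replicate 2, and *Itpr1* and *Homer3* take at least 94.7% of their families in all libraries.

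Of the 15 pairs among the 6 genes, none had a correlation over the 10 libraries that passed the adjustment over the 15 pairs. *Gna11* and *Plcb3* had the highest correlation (Pearson's r = 0.69, permutation p = 0.0305, adjusted p = 0.229, Spearman's rho = 0.72, permutation p = 0.0227, adjusted p = 0.133, n = 10), which fell to r = 0.35 without WT replicates 3 and 4. *Gnaq* and *Homer3* ran most strongly in opposite directions (r = -0.72, permutation p = 0.0189, adjusted p = 0.229, rho = -0.67, permutation p = 0.0386, adjusted p = 0.133, n = 10), with r = -0.65 without WT replicate 5 and mutant replicate 5. *Plcb4* and *Homer3* had r = -0.54 (permutation p = 0.104, adjusted p = 0.339) and rho = -0.76 (permutation p = 0.0147, adjusted p = 0.133, n = 10), with r = -0.76 without WT replicate 3 and mutant replicate 2. For *Gnaq* and *Plcb4*, r was 0.51 (permutation p = 0.122, adjusted p = 0.339) and rho 0.67 (permutation p = 0.0384, adjusted p = 0.133, n = 10). Their r rose to 0.84 without WT replicate 5 and mutant replicate 5.

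*Gnaq* was high where the mitochondrial mRNA of a library was high. Over the 10 libraries this gave r = 0.74 (permutation p = 0.00637, adjusted p = 0.153) and rho = 0.87 (permutation p = 0.00204, adjusted p = 0.049), adjusted over 24 relations between the 6 genes and 4 library measures, and r = 0.71 without WT replicates 3 and 5. *Homer3* ran the other way (r = -0.67, permutation p = 0.0348, adjusted p = 0.361, rho = -0.73, permutation p = 0.0208, adjusted p = 0.249, n = 10), with r = -0.52 without those libraries. Correlations were not computed within a genotype, each of which held 5 mice. The mean log2 level of 10 Purkinje cell markers outside the pathway had r = 0.64 with *Itpr1* (permutation p = 0.0682, adjusted p = 0.361, rho = 0.079, permutation p = 0.837, adjusted p = 0.956, n = 10), and r = -0.15 without WT replicate 5 and mutant replicate 1, so that it rested on these libraries.

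**Figure D4:**
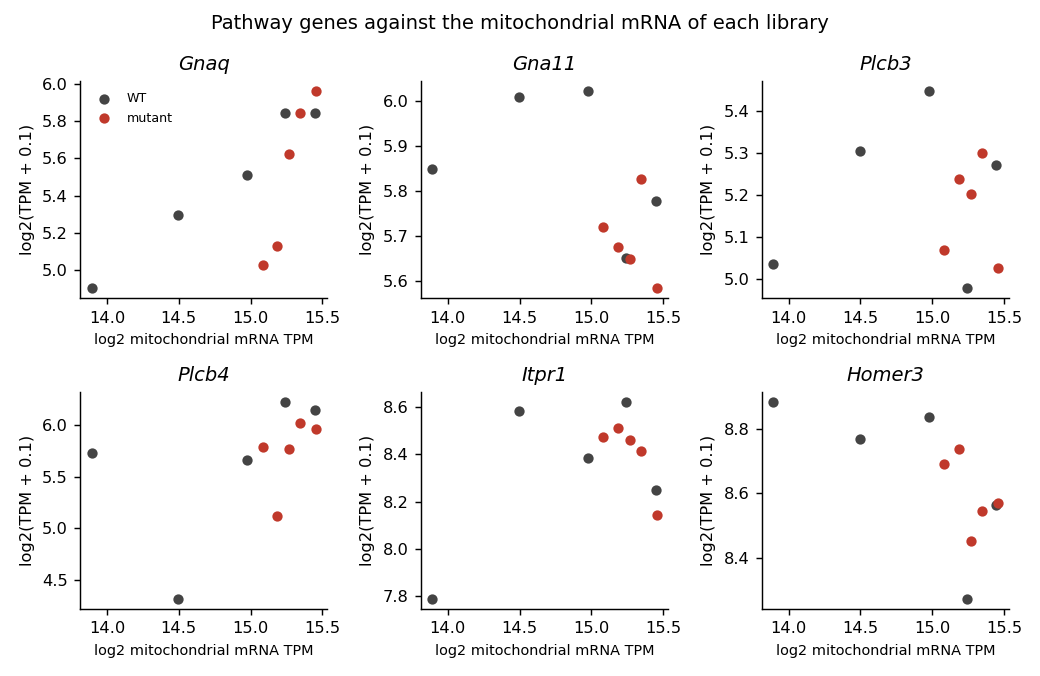
Level of each of the 6 genes (vertical axis, log2 of TPM + 0.1) against the summed mitochondrially encoded mRNA of the same library (horizontal axis, log2 TPM), 1 point per mouse, coloured by genotype. *Gnaq* goes up along the axis (r = 0.74) and *Homer3* down (r = -0.67), and WT replicate 5 is the leftmost point.

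The genes with the pattern most like each of the 6 were sought among 8341 protein-coding genes averaging 10 TPM or more, on log2 values centred on the median of each library (Pearson's r over 10 libraries, which share their scaling and composition). *Homer3* was closest to *Slc12a5*, the potassium chloride cotransporter of neurons (r = 0.99), and to *Rpl28*, a ribosomal protein gene (r = 0.99, with the libraries in the same order, rho = 1). *Gna11* was closest to *Calm3*, a calmodulin gene, and *Sdc3*, a syndecan gene (r = 0.98 for each), and *Plcb3* to *Cend1* and *Babam1* (r = 0.97 for each). *Plcb4* was closest to *Atxn7l3b* and to *Elavl4*, a neuronal RNA-binding protein gene (r = 0.94 for each). *Gnaq* was closest to *Pigc*, of glycosylphosphatidylinositol anchor synthesis (r = 0.896), and *Lsm14a* (r = 0.88), and *Itpr1* to *Fgf1*, a fibroblast growth factor gene, and *Kctd1* (r = 0.87 for each).

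The rest of the pathway was read from 6 lists of 86 genes by role, of which 83 were tested. None passed an adjusted p of 0.05 over all genes tested with limma, and 1 gene with a higher and 3 with a lower mutant value had an unadjusted p under 0.05, against 2.29% and 3.26% of all genes in these directions. The sign was positive for 50 of the 83 genes and negative for 33, beside 9613 positive and 7555 negative among the 17168 genes tested. The median of the 83 was 0.042 (0.048 over all genes tested). Without WT replicates 3 and 5 there were 29 above and 54 below, with a median of -0.050 (-0.094 over all genes), and 0 higher and 2 lower with an unadjusted p under 0.05, so these counts and the median of all genes turned together.

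G protein subunits and RGS proteins, which shorten the signal of G proteins, showed positive values for 12 of 15 (median 0.16, and -0.049 without WT replicates 3 and 5). *Rgs8*, an RGS gene of Purkinje cells and one of the Purkinje markers used here, had 286 ± 50.0 TPM in WT against 364 ± 74.9 TPM in mutant mice (SD, n = 5 each, 0.34 on the log2 scale, with an adjusted p of 0.779 from limma). *Rgs7bp*, which encodes a partner of RGS7 proteins, had 55.2 ± 18.4 and 69.0 ± 9.85 TPM (0.38 on the log2 scale). *Gng13*, a gamma subunit gene, was the most abundant of the list at 744 ± 184 and 807 ± 69.9 TPM (0.16 on the log2 scale). Leaving out WT replicates 3 and 5 brought *Rgs8* to 0.16, *Rgs7bp* to 0.036 and *Gng13* to 0.035. The 13 Purkinje cell markers tested had 11 values above 0 in either case, with a median of 0.21, or 0.062 when those libraries were left out, and the part of Purkinje cell RNA content in these differences was not tested.

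The other phospholipase C isozymes showed positive values for 6 of 11 (median 0.033, and -0.20 without WT replicates 3 and 5). *Plch2*, of the eta type, had 113 ± 10.1 TPM in WT against 94.98 ± 10.3 TPM in mutant mice (SD, n = 5 each), with unadjusted p = 0.0304 and adjusted p = 0.779 from limma. The mutant libraries reached from 80.1 to 103 TPM and the WT libraries from 102 to 129 TPM, so the groups overlapped at their edges. *Plcl1*, a relative without catalytic activity, had 4.08 ± 1.179 and 5.82 ± 1.11 TPM (0.52 on the log2 scale). Leaving out WT replicates 3 and 5 brought *Plch2* from -0.25 to -0.20 (unadjusted p = 0.0908 from limma) and *Plcl1* to 0.32.

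Genes of calcium stores and store-operated entry showed positive values for 9 of 15 (median 0.028, and -0.050 without WT replicates 3 and 5). *Orai1*, the pore of store-operated calcium entry, was at 14.8, 12.6, 21.7, 21.9 and 19.9 TPM in WT replicates 1 to 5 and between 8.68 and 15.3 TPM in the mutant (-0.52 on the log2 scale, where limma's 95% interval ran from -0.998 to -0.033 and its adjusted p was 0.779). WT replicates 1 and 2 thus fell inside the mutant range and the other 3 WT libraries lay above it. *Itpr3* had 7.92 ± 3.46 TPM in WT against 5.38 ± 1.83 TPM in mutant mice (SD, n = 5 each). *Car8*, whose protein lowers the affinity of the inositol trisphosphate receptor for its ligand, was the most abundant of the list at 407 ± 143 and 468 ± 62.0 TPM (0.26 on the log2 scale, with an adjusted p of 0.786 from limma). Without WT replicates 3 and 5 the sign for *Car8* turned to -0.040, from a WT mean of 487 TPM, while *Orai1* was at -0.37 (unadjusted p = 0.170 from limma) and *Itpr3* went from -0.49 to -0.19.

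Homer and Shank scaffolds were evenly split, with 4 of 8 values above 0 (median -0.036, and -0.080 without WT replicates 3 and 5). *Shank3*, a scaffold gene of the postsynaptic density and the most abundant of the list, had 101 ± 13.9 TPM in WT against 82.3 ± 15.1 TPM in mutant mice (SD, n = 5 each, -0.31 on the log2 scale, with an adjusted p of 0.779 from limma). *Homer1* had the largest value of the list, 1.32, with a 95% interval of -0.59 to 3.23 beside its levels under 1 TPM in WT replicates 3 and 5. Without these libraries its sign turned to -0.29 (95% interval -1.07 to 0.49, adjusted p = 0.907 from limma), and *Shank3* was at -0.20.

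On the diacylglycerol branch 13 of 19 values lay above 0 (median 0.13, and -0.016 without WT replicates 3 and 5). *Dgkz*, a kinase that removes diacylglycerol and the most abundant gene of the list, had 468 ± 64.1 TPM in WT against 383 ± 54.1 TPM in mutant mice (SD, n = 5 each, -0.29 on the log2 scale, with limma's unadjusted p at 0.0338 and its adjusted p at 0.779). Without WT replicates 3 and 5 *Dgkz* was at -0.28 (unadjusted p = 0.0449 and adjusted p = 0.834 from limma). *Prkca*, which encodes protein kinase C alpha, had 12.1 ± 1.80 and 14.9 ± 1.09 TPM. Inositol phosphate turnover showed positive values for 6 of 15 (median -0.056, and -0.098 without WT replicates 3 and 5). *Cds1*, which feeds the resynthesis of phosphatidylinositol, had 57.3 ± 11.4 TPM in WT against 72.2 ± 8.12 TPM in mutant mice (SD, n = 5 each, 0.35 on the log2 scale, with limma's unadjusted p at 0.0355 and its adjusted p at 0.779). Its log2 value was 0.13 (unadjusted p = 0.249 from limma) when WT replicates 3 and 5 were left out. *Pip5k1c*, a kinase that makes the lipid split by phospholipase C, had 332 ± 28.6 and 289 ± 32.8 TPM.

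**Figure D5:**
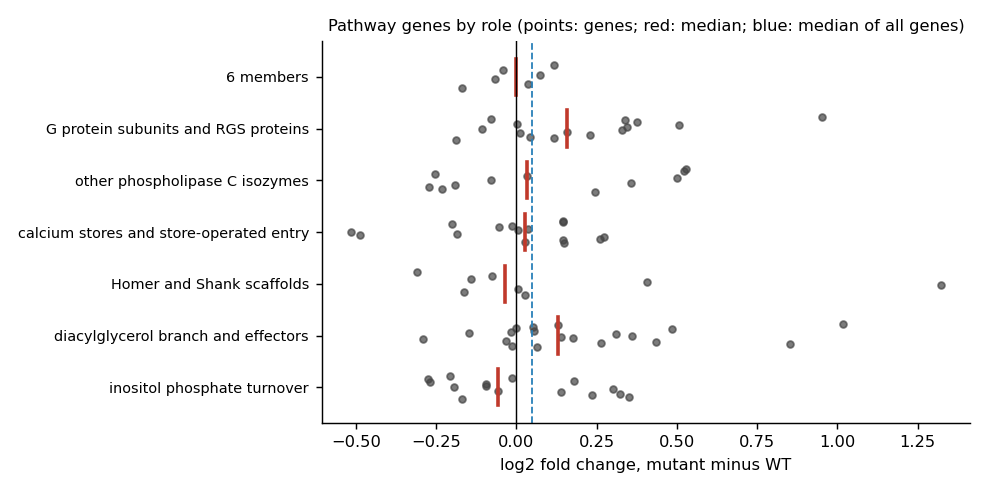
Log2 fold change (horizontal axis, mutant minus WT) of the 6 genes and of the tested genes of the 6 pathway lists, 1 point per gene, with the median of each group in red and the median of all genes tested as a dashed line. Group medians lie between -0.056 and 0.16, and the point furthest right is *Homer1* at 1.32, a value that turned to -0.29 without WT replicates 3 and 5.

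Markers of other cell types were read beside these values. Granule cell markers had 9 of 10 log2 fold changes below 0 (median -0.15), with sums of 3252 to 4020 TPM in WT libraries and 3127 to 3562 TPM in mutant ones. Markers of myelinating oligodendrocytes had 8 of 8 above 0 (median 0.27), with sums of 5789 to 8374 and 7364 to 8648 TPM. By limma, 3 granule cell markers were lower and 4 oligodendrocyte markers higher at an unadjusted p under 0.05, against 3.26% and 2.29% of all genes. For 2 markers of each list the groups did not overlap, against 1.22% of all genes, and 0 passed an adjusted p of 0.05. Without WT replicates 3 and 5, 6 and 3 markers had an unadjusted p under 0.05 by limma, against 5.96% of all genes. Of 9 brainstem and midbrain markers, 4 were tested, and *Phox2a*, *Hoxa5* and *Hoxb5* were listed at 0 in all libraries. The 9 came to 3.21 to 10.8 TPM in WT libraries and 8.23 to 20.4 TPM in mutant ones (median 1.29). In the libraries with the highest sums, WT replicate 2 and mutant replicate 1, *Slc17a6* alone had 8.43 and 14.1 TPM. By limma, 3 of the 4 tested were higher at an unadjusted p under 0.05, against 2.29% of all genes, and 0 passed an adjusted p of 0.05. For 1 the groups did not overlap, against 1.22% of all genes. Medians were 0.067 for 8 markers of Bergmann glia and astrocytes, 0.18 for 6 of interneurons, 0.018 for 6 of microglia and 0.35 for 7 of choroid plexus and blood. Without WT replicates 3 and 5 the medians were -0.26 for granule cells (10 of 10 below 0), 0.17 for oligodendrocytes (7 of 8 above 0) and 1.04 for brainstem and midbrain. They were then -0.064 for Bergmann glia and astrocytes, 0.042 for interneurons, 0.045 for microglia and 0.40 for choroid plexus and blood. This last list joins globin genes with choroid plexus genes, which were not read apart. Its values were above 0 for 6 of 7 genes with all libraries, and for 4 with 3 below without WT replicates 3 and 5. Among the relations to library measures given above, none of the 6 genes followed the granule cell or oligodendrocyte markers past an adjusted p of 0.05 (permutation tests). The highest r of these was 0.63, between *Itpr1* and the oligodendrocyte markers (permutation, adjusted p = 0.361, rho = 0.018). It was -0.16 without WT replicate 5 and mutant replicate 1. Beyond these correlations, the part of these cell types in the levels of the 6 genes was not tested.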

How the data were processed

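Total RNA from the cerebellum tissue of 10 mice was made into directional libraries and sequenced by the authors on the Illumina NovaSeq platform. Reads were trimmed with Trimmomatic (version 0.36), aligned to GRCm38 with HISAT2 (version 2.2.0) and quantified with StringTie (version 1.3.6), and the deposited values are TPM per Ensembl gene as the authors computed them. The annotation release they used is not given in the sources used here. The counts behind the study's own test were not analysed here.

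Genes with at least 0.5 TPM in at least 5 of 10 libraries were compared on log2(TPM + 0.1) by limma (version 3.58.1, run under R 4.3.3), without covariates and with a variance trend. Benjamini-Hochberg adjustment covered all genes tested. The added 0.1 TPM draws fold changes of low genes toward 0. Single values were compared with exact permutation tests in Python (version 3.11.15), whose smallest p is 0.0079 for 5 mice against 5. The fit was tested on simulated data. The DESeq2 model of the methods needs counts and was not run.

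The 6 genes and the gene lists were chosen with earlier results of these data known. Named genes are the 6, *Dscam*, their family members, in each pathway list those with the 2 smallest p and the highest mean, the 2 most abundant Purkinje cell markers, the 2 genes most like each of the 6 in pattern, and any gene past the threshold, of which there was none. *Car8*, *Itpka* and *Rgs8* are both pathway genes and Purkinje cell markers. Positions are from GENCODE M21, which lacked 191 identifiers. Of the listed genes, *Itprip* was not analysed here, and neither was the receptor at the start of the pathway. The alternatives were other added values, filters, scalings, variance models and covariates, a replicate block, and libraries left out.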

Additional observations from a re-analysis of the deposited data

Results flagged for a closer look

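Across 32 sets of 5 libraries of 1 genotype (levels, family shares and list means), 2 held a value set well apart, where chance gives 1.6. Mutant replicate 4 had the lowest *Itpr1* level of its genotype, 282.6 TPM, and 341 TPM was the next lowest. The same animal had the lowest mean over the calcium store genes, 4.38 on the log2 scale, and 4.58 was the next lowest.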

How the results depend on the processing

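The number of genes past an adjusted p of 0.05 was 4 with no variance trend, 0 to 1 with 1 library left out (1 without mutant replicate 4) and 0 otherwise, none of them among the 6 genes or the pathway lists. The adjusted p of each of the 6 stayed above 0.05 in all 25 alternatives, while signs turned for 5 of them. Without WT replicates 3 and 5 together, *Gnaq* was at -0.22, *Plcb4* at -0.28, *Itpr1* at -0.018 and *Homer3* at 0.041 (log2), the median of the other phospholipase C isozymes at -0.20, and the family shares of *Gnaq*, *Plcb4* and *Homer3* at -1.51, -3.26 and 0.603 percentage points. In a comparison added after seeing the data, leaving out these libraries also turned *Homer1* (-0.29), *Car8* (-0.040), *Pcp2* (0.049), *Plcb1* (-0.24), *Itpr2* (-0.014), *Pigc* (-0.22), *Atxn7l3b* (-0.16) and *Elavl4* (-0.23). With mitochondrial mRNA as a covariate, *Gnaq* was at -0.30, *Plcb4* at -0.17, *Itpr1* at -0.046 and *Homer3* at 0.067. With the Purkinje markers as a covariate, *Gnaq* was at -0.30, *Itpr1* at -0.16, *Homer3* at 0.057 and the median of calcium stores at -0.12. These covariates moved the median of all genes from 0.048 to -0.10 and -0.13, and leaving out both libraries to -0.094. Array weights gave -0.064 for *Gnaq* and -0.0098 for *Itpr1*, and median log ratio centring -0.010 for *Gnaq*. With 1 library left out in turn, *Gnaq* ranged from -0.11 to 0.16, *Plcb3* from -0.098 to 0.020, *Plcb4* from -0.21 to 0.27, *Itpr1* from -0.060 to 0.15, *Homer3* from -0.16 (without WT replicate 2) to -0.012 (without WT replicate 5), the other isozymes' median from -0.11 (without WT replicate 5) to 0.29 and the *Plcb4* share from -3.72 (without WT replicate 3) to 4.81 points. The *Gnaq* share ranged from 1.13 (without WT replicate 5) to 5.89 points (without WT replicate 2), the *Itpr1* share from 0.344 (without WT replicate 5) to 1.31 and the *Homer3* share from -1.50 to -0.300 (without WT replicates 2 and 5 in turn). List medians ranged from 0.050 (without WT replicate 5) to 0.26 for G proteins and RGS, from -0.11 (without WT replicate 2) to 0.019 (without WT replicate 5) for Homer and Shank, from 0.070 (without mutant replicate 1) to 0.18 for diacylglycerol, from -0.0066 (without mutant replicate 1) to 0.076 (without WT replicate 4) for calcium stores and from -0.095 (without mutant replicate 1) to -0.0010 (without WT replicate 1) for inositol phosphates. On the log2 scale *Homer3* against *Itpr1* ranged from 0.18 to 0.34 (passing without WT replicate 2), *Plcb4* against *Gnaq* from 0.10 to 0.30 (passing without WT replicate 3) and *Gna11* against *Plcb4* from -0.073 (without WT replicate 3) to 0.18. Beyond the libraries left out, the cause was not tested.

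With the replicate number as a block, 0 genes passed (1094 against 953 at an unadjusted p under 0.05, by limma), *Gna11* stayed at -0.17 (adjusted p = 0.740 from limma) and no call changed. Same-numbered samples correlated by 0.0079 to 0.098, not every sample correlated best with its own number, and the numbers were not taken to pair the mice. The depth of the libraries is unknown, so it cannot be said what it limits.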
